A study of Caenorhabditis elegans with 8 samples.

Results

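The transthyretin-like (ttr) genes are the 49 genes of the deposited table whose name is ttr followed by a number, out of 14541 named genes, and they were chosen by name alone. The Ensembl annotation of the C. elegans genome (release 115, assembly WBcel235) holds 58 genes so named. The other 9 (ttr-13, ttr-19, ttr-22, ttr-28, ttr-38, ttr-52, ttr-55, ttr-57 and ttr-58) were not in the table and are not analysed here. Poly(A)-selected RNA from whole animals was sequenced in 4 libraries of pals-17(*) mutants and 4 libraries of the wild-type strain N2. pals-17(*) is the allele syb3980 (strain ERT994), in which consecutive stop codons were placed in an exon of pals-17 by genome editing, and the wild-type carries neither this allele nor any other named one. Both strains were synchronized at the first larval stage (L1) and fed Escherichia coli OP-50 at 20 °C, pals-17(*) animals for 72 h and wild-type animals for 48 h. The mutants grow slowly, and their populations were of mixed stages around the last larval stage (L4), so genotype, growth time and developmental stage cannot be told apart in any difference below. Each library pooled many animals, and in RNA of this kind fewer cells of a type and less RNA per cell cannot be told apart. The labels call the libraries replicates without naming separate cultures, so p-values measure only the spread between these libraries.

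Transthyretin-like proteins form one of the largest protein families found in nematodes, and most are small proteins with a signal for secretion. They are named for a distant likeness to vertebrate transthyretin, which carries thyroid hormone in blood, but they are not known to carry it, and few members have a known role. TTR-52 is a secreted protein that links phosphatidylserine on dying cells to the engulfment receptor CED-1, TTR-11 binds phosphatidylserine on injured axons, and TTR-33 limits the loss of dopaminergic neurons under oxidative stress.

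The values are CPM, the reads of a gene as a share of a library whose size the authors scaled, in the usual unit of counts per 1e6. The libraries held 17871320 to 23378799 reads on listed genes, and 1 read was worth 0.0362 to 0.0446 CPM in pals-17(*) and 0.0522 to 0.0681 CPM in wild-type, since the scaled library sizes were 1.20 to 1.26 times the read totals in pals-17(*) and 0.793 to 0.822 times in wild-type. Across all genes the log2 values correlated at 0.988 to 0.995 among pals-17(*) libraries, 0.973 to 0.988 among wild-type libraries and 0.676 to 0.766 between the strains. pals-17 itself (chromosome III, 1390450 to 1391852, minus strand) averaged 4.37 ± 0.224 CPM in pals-17(*) and 16 ± 2.22 CPM in wild-type (SD, n = 4 each), a log2 fold change of -1.86 (SE 0.114, adjusted p = 1.72e-07, limma). Some lists of tissue and stage genes moved in 1 direction and others divided. At an adjusted p under 0.05 (limma), 42.5% of all genes were higher in pals-17(*) and 41.2% lower, the background for these counts. All 15 oocyte and early embryo genes were higher, with summed levels of 3547 to 4812 CPM in pals-17(*) and 35.1 to 169.6 CPM in wild-type, and so were all 8 sperm genes (274.9 to 320.6 CPM against 12.3 to 39.4 CPM). All 15 genes of the molting larval cuticle were lower (1482 to 1845 CPM against 8902 to 10662 CPM), as were all 9 intestinal genes (5072 to 6127 CPM against 20895 to 23442 CPM), 6 of 7 genes of body wall muscle (3989 to 6474 CPM against 6671 to 9542 CPM) and 7 of 11 neuronal genes, with 1 higher (731.1 to 809.7 CPM against 1000 to 1042 CPM). The adult cuticle list divided 3 higher and 3 lower, and its sums (2847 to 3099 CPM against 2165 to 2688 CPM) cover large opposite changes. col-19, col-62 and col-7 were higher (log2 fold changes 5.92, 3.02 and 3.01), while bli-1, bli-2 and rol-1 were lower (-3.03, -3.15 and -2.82). The amphid glia list divided 2 and 2 of its 4 listed genes (30.4 to 39.5 CPM against 44.6 to 52.5 CPM), and the pharynx list 3 and 1 of its 5 listed genes (77.1 to 191.5 CPM against 21 to 63.9 CPM). No gene of these lists was at 0 in every library of a strain, and the part of these cells and stages in the ttr differences was not tested.

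Most ttr genes differed between the strains, in both directions. At an adjusted p under 0.05 (limma on the log2 values, Benjamini-Hochberg over all genes, 2-sided), 29 of the 49 were higher in pals-17(*) (59.2%, against 42.5% of all genes) and 14 were lower (28.6%, against 41.2% of all genes), while 6 did not pass. The 43 that passed make 87.8% of the ttr genes, close to the 83.7% of all genes that passed. With a log2 fold change above 2 as well, 9 were upregulated (18.4%, against 20.6% of all genes), and with one below -2, 6 were downregulated (12.2%, against 7.48%). The 4 pals-17(*) libraries lay wholly above the 4 wild-type libraries for 28 members (41.2% of all genes) and wholly below for 13 (39% of all genes), 41 of 49 in all (83.7%, against 80.2% of all genes). The median log2 fold change of the ttr genes was 0.91, with quartiles of -0.33 and 1.75, beside a median of 0.0041 and quartiles of -0.80 and 1.41 over all genes. Among the 34 members with a mean log2 value above 2, 16 were higher, 2 were upregulated and the median was 0.10, beside -0.19 over all genes at that level. Because the table leaves out genes at low levels, a member that averaged under 1 CPM in only one strain had to differ to be listed: 7 members did so in wild-type, all higher in pals-17(*), and 1 did so in pals-17(*), ttr-40.

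**Figure D1:**
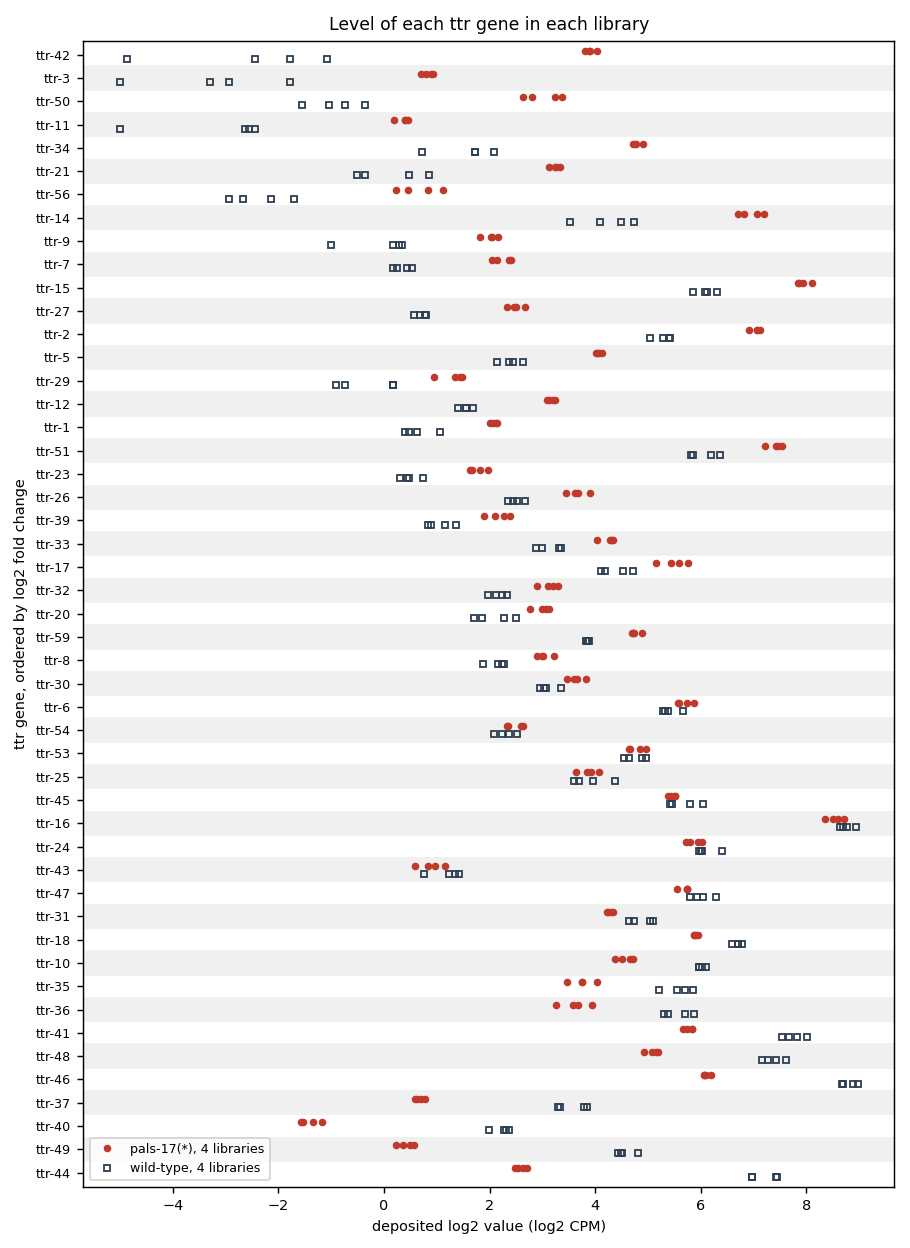
Level of each of the 49 ttr genes as log2 CPM in the 4 pals-17(*) libraries and the 4 wild-type libraries, 1 point per library, in the order of the fold change. The groups are apart for 41 of the 49 genes and overlap in the middle of the order, and the members at the ends differ most.

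Most ttr genes at low levels were higher in pals-17(*), while those at 10 CPM or more were divided. The 29 higher members had a median of 8.92 CPM in pals-17(*) and 3.09 CPM in wild-type, and 22 of them were under 10 CPM in wild-type, while the 14 lower members had a median of 21.5 CPM in pals-17(*) and 64.9 CPM in wild-type. The wild-type level enters the fold change, so the wild-type medians of these groups differ in part by construction. Genes in general were also mostly higher at low levels, and more often lower at the levels above. In the bands that follow, the level of a gene is the mean of its log2 values over both strains, turned back to CPM. Of the 25 ttr genes under 10 CPM by this measure, 20 were higher and 3 lower (median log2 fold change 1.61). Of all genes in that band, 56.6% were higher and 26.4% lower (median 0.89). The members under 1 CPM in only 1 strain, which had to differ to be listed, lie in this band. Of the 19 between 10 and 100 CPM, 7 were higher and 8 lower (median -0.21), beside 36.2% and 47.1% of all genes (median -0.14). Of the 5 at 100 CPM or more, 2 were higher and 3 lower (median -0.22), where 12.5% of all genes were higher and 75.7% lower (median -0.75).

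Among the lower members, ttr-44 (WBGene00008341, chromosome V, 13529545 to 13530744, minus strand) had the largest difference. It measured 5.8, 6.48, 6.15 and 5.55 CPM in pals-17(*), against 125, 125, 174 and 172 CPM in wild-type. The wild-type libraries fell into a low and a high pair, and all lay far above the pals-17(*) libraries: the log2 fold change was -4.61 (SE 0.126, adjusted p = 1.39e-09, limma), or 24.5-fold lower. A stretch of 167 exonic bases of ttr-44 is shared with R11G10.3 on the opposite strand. ttr-46 (chromosome V, 9951233 to 9952178, plus strand) had the highest CPM of any member in wild-type, before scaling to length. It measured 68.7, 66.9, 73.3 and 66.5 CPM in pals-17(*), against 412, 409, 470 and 501 CPM in wild-type. The spread within either strain was small beside the gap, with a log2 fold change of -2.70 (SE 0.0768, adjusted p = 1.75e-09). This 1 gene made 3.71% of the summed CPM of the ttr genes in pals-17(*) and 19.3% in wild-type.

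The adjacent genes ttr-40 and ttr-49, on the minus strand of chromosome V, differed alike. ttr-49 (9355505 to 9356515) measured 1.38, 1.27, 1.45 and 1.15 CPM in pals-17(*), against 22.6, 21.5, 22.4 and 28.1 CPM in wild-type (log2 fold change -4.15, SE 0.130, adjusted p = 2.86e-09). ttr-40 (9354521 to 9355471) was at 0.312 to 0.421 CPM in pals-17(*), from 37 reads in all, and at 3.92 to 5.11 CPM in wild-type, from 303 reads (log2 fold change -3.65, SE 0.185). Neither gene's groups overlapped. ttr-37, on the X chromosome, was at 1.47 to 1.70 CPM in pals-17(*) and 9.82 to 14.3 CPM in wild-type (log2 fold change -2.89, SE 0.156).

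Other lower members were also well transcribed in wild-type. ttr-48 averaged 34 ± 2.63 CPM in pals-17(*) and 166 ± 23.2 CPM in wild-type (log2 fold change -2.28, SE 0.102). ttr-41 averaged 54.4 ± 3.11 CPM in pals-17(*) and 219 ± 31.6 CPM in wild-type (-2.0, SE 0.0990), at the edge of the fold threshold. ttr-18 had the smallest standard error of the lower members, at 58.3 to 61.8 CPM in pals-17(*) and 96.7 to 109 CPM in wild-type (-0.80, SE 0.0578). ttr-36, ttr-35, ttr-10 and ttr-31 also fell, by 1.95, 1.83, 1.45 and 0.60 on the log2 scale, with no overlap between the strains, but with libraries scaled to their totals ttr-31 stood at -0.0021 (adjusted p = 0.987). ttr-47 averaged 51.6 ± 3.18 CPM in pals-17(*) and 65.1 ± 9.70 CPM in wild-type (-0.33, SE 0.103, adjusted p = 0.0136, limma), and it turned to 0.27 under that scaling.

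Among the higher members, the largest fold changes belonged to genes that were almost silent in wild-type. ttr-42 (chromosome X, 2577742 to 2578262, plus strand) measured 14, 14.9, 14.7 and 16.4 CPM in pals-17(*), against 0.439, 0.157, 0.258 and 0 CPM in wild-type. The pals-17(*) values rest on 1548 reads and the wild-type values on 14, of which replicate 4 had none, so the fitted log2 fold change of 6.46 (SE 0.669, adjusted p = 7.76e-06) depends on the 0.5 reads added to every count, and it was 5.68 to 6.94 with a library left out. Its log2 values had the largest SD of any member in wild-type, 1.65. ttr-3 had 181 reads in pals-17(*) and 7 in wild-type (1.76 ± 0.123 CPM against 0.108 ± 0.109 CPM, fitted log2 fold change 4.08, SE 0.578). ttr-56, the single listed member on chromosome I, had 166 reads in pals-17(*) and 11 in wild-type (1.60 ± 0.443 CPM against 0.174 ± 0.0759 CPM, 3.02, SE 0.343), and its SD of 0.394 on the log2 scale was the largest of any member in pals-17(*).

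Members with more wild-type reads rose too. ttr-50 measured 6.16, 6.99, 10.33 and 9.37 CPM in pals-17(*), against 0.564, 0.313, 0.452 and 0.749 CPM in wild-type (log2 fold change 3.94, SE 0.278, adjusted p = 4.63e-07, limma). ttr-34 was at 26.1 to 29.8 CPM in pals-17(*) and 1.62 to 4.2 CPM in wild-type (3.22, SE 0.247). ttr-21 was at 8.72 to 10.03 CPM in pals-17(*) and 0.679 to 1.77 CPM in wild-type (3.12, SE 0.284). In each of the 3 genes the lowest pals-17(*) library stood well above the highest wild-type library. ttr-14 measured 133, 146, 105 and 112 CPM in pals-17(*), against 22.4, 11.4, 26.5 and 17 CPM in wild-type (2.74, SE 0.232), with wild-type replicate 2 lowest. It shares 90 exonic bases with vap-2 on the opposite strand. ttr-7 averaged 4.73 ± 0.554 CPM in pals-17(*) and 1.25 ± 0.143 CPM in wild-type (1.90, SE 0.155).

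The higher members also held some of the best transcribed genes of the family. ttr-15 (chromosome III, 10337847 to 10339440, plus strand) measured 230, 275, 233 and 245 CPM in pals-17(*), against 67.3, 79.2, 57.6 and 69.4 CPM in wild-type. The strains were far apart (log2 fold change 1.85, SE 0.0984, adjusted p = 6.72e-08), and ttr-15 made 13.2% of the family's summed CPM in pals-17(*) and 2.95% in wild-type. ttr-51 measured 149, 172, 176 and 185 CPM in pals-17(*), against 57.3, 56.6, 73.5 and 81.7 CPM in wild-type (1.36, SE 0.126). Wild-type replicates 3 and 4 were the higher pair, still under all pals-17(*) libraries. ttr-2 averaged 131 ± 7.45 CPM in pals-17(*) and 39.2 ± 4.46 CPM in wild-type (1.75, SE 0.0891). Apart from ttr-11, the other higher members, among them ttr-9, ttr-27 and ttr-5, had log2 fold changes between 0.27 and 2.07. The lowest of these, ttr-6, averaged 51.6 ± 5.05 CPM in pals-17(*) and 42.8 ± 5.25 CPM in wild-type, with overlapping libraries (adjusted p = 0.0268), and it stood at -0.0038 with the libraries centred on their medians.

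Of the members with a known role, ttr-52 was not in the table. ttr-11 (chromosome V, 20603314 to 20604428, plus strand) measured 1.29, 1.12, 1.34 and 1.30 CPM in pals-17(*), against 0, 0.157, 0.129 and 0.136 CPM in wild-type. These are 29 to 36 reads per pals-17(*) library and 0 to 3 reads per wild-type library, and the fitted log2 fold change of 3.52 (SE 0.547, adjusted p = 0.000158) was 2.90 without wild-type replicate 1. ttr-33 (chromosome V, 7837093 to 7837909, minus strand) measured 16.3, 19.7, 20.2 and 19.4 CPM in pals-17(*), against 7.33, 10.2, 7.88 and 9.94 CPM in wild-type. It was 2.15-fold higher (log2 fold change 1.10, SE 0.130, adjusted p = 2.04e-05) with no overlap, and it shares 42 exonic bases with txt-5 on its own strand.

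Genes chosen for a part in the control of phosphatidylserine exposure or in the clearing of dying cells, in which TTR-52 acts, were all listed. They do not share 1 role or direction of action. Of 14, 8 were higher, 4 were lower and 2 did not pass, beside 42.5% and 41.2% of all genes higher and lower, with a median log2 fold change of 0.27, and none passed a fold change of 2 on the log2 scale. The lower count was 2 without pals-17(*) replicate 3, pals-17(*) replicate 4 or wild-type replicate 3, and 1 with libraries scaled to their totals. The higher count was 12 under that scaling and 5 with median centring. ced-1, which encodes the engulfment receptor, averaged 53 ± 4.61 CPM in pals-17(*) and 51.8 ± 3.54 CPM in wild-type (0.03, SE 0.0798, adjusted p = 0.728, limma), with overlapping libraries. psr-1, which encodes a receptor for phosphatidylserine, averaged 41.5 ± 3.44 CPM in pals-17(*) and 16.8 ± 1.20 CPM in wild-type (1.30, SE 0.0852). The highest mean CPM in the list belonged to ced-7 and wah-1. ced-7, which encodes an ABC transporter, averaged 143 ± 24.4 CPM in pals-17(*) and 161 ± 10.26 CPM in wild-type (-0.18, SE 0.111, adjusted p = 0.146). wah-1, whose mitochondrial protein is released in apoptosis, averaged 82.3 ± 4.95 CPM in pals-17(*) and 171 ± 7.83 CPM in wild-type (-1.05, SE 0.0629). A relative that lies closer to vertebrate transthyretin, the 5-hydroxyisourate hydrolase-like gene R09H10.3, averaged 20.7 ± 0.660 CPM in pals-17(*) and 116 ± 13.7 CPM in wild-type (-2.48, SE 0.0858, adjusted p = 4.91e-09).

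The 6 members that did not pass under the deposited scaling lay between -0.31 and 0.17 on the log2 scale, and their libraries overlapped. ttr-53 averaged 27.5 ± 3.01 CPM in pals-17(*) and 27.1 ± 3.71 CPM in wild-type (0.03, SE 0.115, adjusted p = 0.843), and ttr-25 averaged 14.7 ± 1.87 CPM in pals-17(*) and 15.3 ± 3.90 CPM in wild-type (-0.04, SE 0.169, adjusted p = 0.824). ttr-54 (0.17, adjusted p = 0.248), ttr-45 (-0.21, adjusted p = 0.152), ttr-24 (-0.22, adjusted p = 0.0791) and ttr-43 (-0.31, adjusted p = 0.170) stood further from 0. All 6 passed under some other scaling. With libraries scaled to their totals all but ttr-43 were higher, and with median centring ttr-43, ttr-24 and ttr-45 were lower. With quantile normalization ttr-43 (-1.43, adjusted p = 0.000113, limma) and ttr-54 (-0.59, adjusted p = 0.00315) were lower. ttr-16, the family's best transcribed gene in pals-17(*), measured 328, 361, 420 and 387 CPM in pals-17(*), against 412, 400, 438 and 489 CPM in wild-type. The groups overlapped, and the log2 fold change of -0.22 (SE 0.0910, adjusted p = 0.0460) was lost when any of 6 libraries was left out and turned positive with libraries scaled to their totals (0.38) or quantile normalized (0.64). It also shares 209 exonic bases with lin-3 on the opposite strand.

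**Figure D2:**
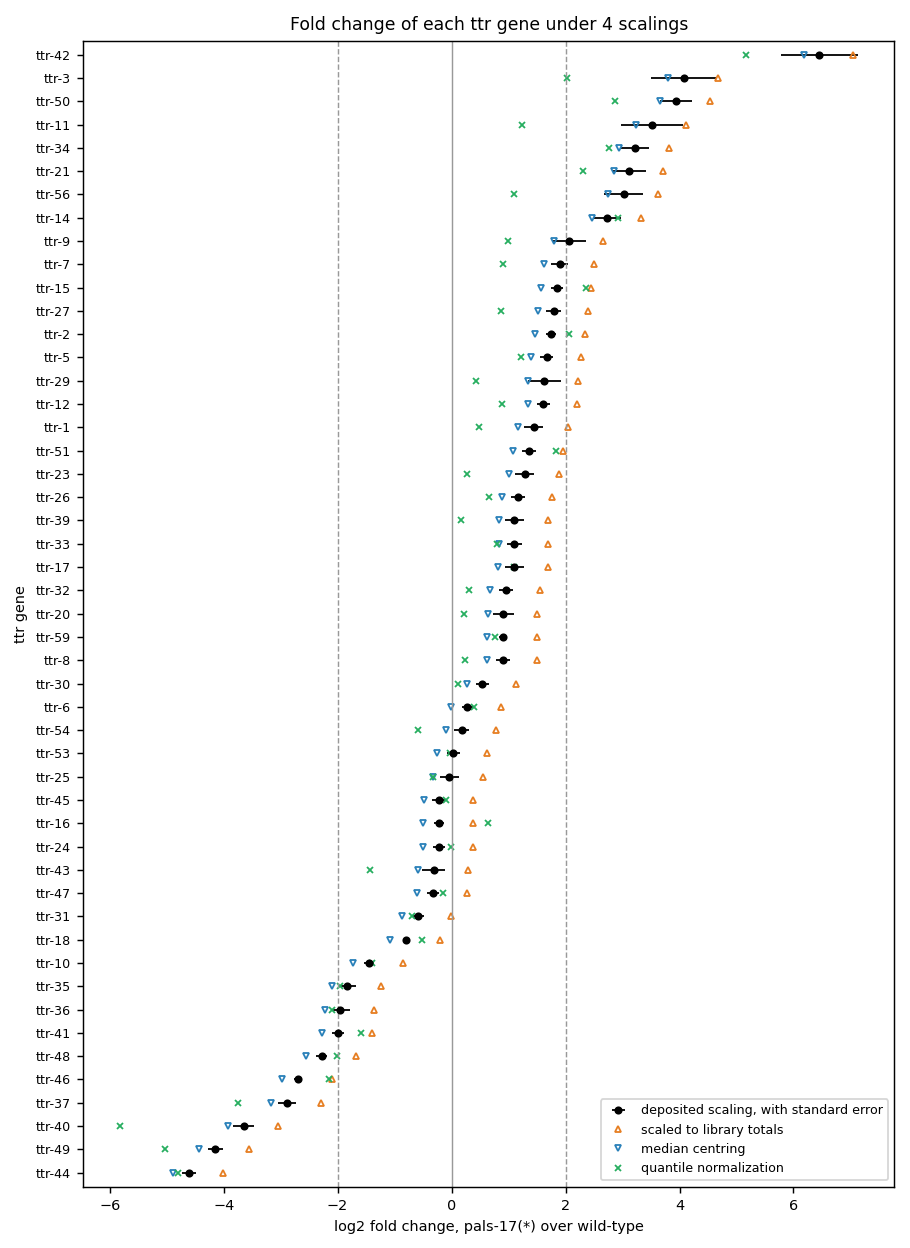
Log2 fold change, pals-17(*) over wild-type, of each ttr gene under the deposited scaling with its standard error and under 3 other scalings of the libraries. Library totals put every gene higher and median centring every gene lower by a common amount, quantile normalization moves genes unequally, several members near 0 cross it, and the ends, ttr-42 at 6.46 and ttr-44 at -4.61, keep their sign.

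The scaling of the libraries set where 0 lay. Scaling to library totals moved the median log2 fold change of all genes by 0.596, median centring by -0.278 and quantile normalization by -0.121. With library totals, 36 ttr genes were higher and 11 lower, beside 60.1% and 23.3% of all genes. With median centring, 27 were higher and 17 lower, beside 36.1% and 50% of all genes. With quantile normalization, 23 were higher and 14 lower, beside 39.1% and 45.5% of all genes. Of the ttr genes called, 76.6%, 61.4% and 62.2% were higher under these scalings in turn and 67.4% under the deposited one, and of all genes called, 72.1%, 42% and 46.2% were higher and 50.8% under the deposited one. The median of the ttr genes stood 0.905 above that of all genes under the deposited scaling. Library totals and median centring shift every gene by a common amount, so they cannot change this difference. Under quantile normalization, which treats levels unequally, it was 0.424.

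Per kilobase of exon, the order of the family differed between the strains. In pals-17(*) the 5 highest members were ttr-16 at 727.8, ttr-15 at 404, ttr-51 at 355, ttr-2 at 264 and ttr-41 at 109.9 CPM per kb. In wild-type they were ttr-16 at 846, ttr-46 at 674, ttr-41 at 442, ttr-48 at 272 and ttr-44 at 223 CPM per kb, so 2 genes were in both. ttr-44 stood at place 35 in pals-17(*) and at place 5 in wild-type, and ttr-15 at place 2 in pals-17(*) and at place 10 in wild-type. Library by library, ttr-16 lay above every other member in both strains. Among the next in order, ttr-15 and ttr-51 overlapped in pals-17(*), as did ttr-41 and ttr-18, and ttr-48 and ttr-44 overlapped in wild-type. The median member stood at 24.8 CPM per kb in pals-17(*) (11.5 over all genes) and at 13.7 CPM per kb in wild-type (9.26 over all genes). The summed CPM of the family was 1713 to 1923 in pals-17(*) and 2103 to 2642 in wild-type. Without ttr-46 it was 1644 to 1850 in pals-17(*) and 1694 to 2142 in wild-type, so that the groups overlapped.

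**Figure D3:**
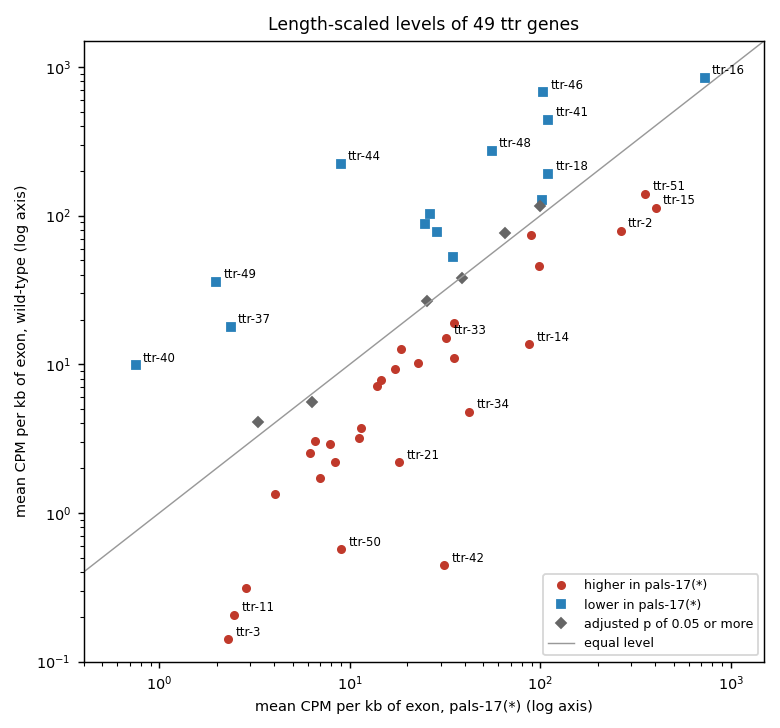
Mean CPM per kb of exon of each ttr gene in pals-17(*) (horizontal, log axis) and in wild-type (vertical, log axis), with the line of equal level. ttr-44, ttr-46 and ttr-49 lie far above the line and ttr-42 and ttr-50 far below it, while ttr-16, the highest gene in both strains, lies near it.

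The family is spread over all 6 chromosomes, with 17 listed members on V, 11 on X, 10 on IV, 8 on III, 2 on II and 1 on I. All 8 on chromosome III were higher in pals-17(*), where 43.0% of all genes on III were higher, but under quantile normalization ttr-8 (0.23, adjusted p = 0.143, limma) and ttr-32 (0.31, adjusted p = 0.0591) no longer passed. On the X chromosome 6 of 11 were higher and 5 lower, where 23.8% of all X genes were higher and 58.7% lower. On X the calls of ttr-6 and ttr-30 were lost with median centring (-0.0038 and 0.26), that of ttr-30 with quantile normalization (0.12) and that of ttr-31 with library totals (-0.0021). On V, 8 were higher and 6 lower, beside 42.3% and 41.9% of all genes there, and on IV, 6 were higher and 1 lower, beside 48.9% and 36.4%. Quantile normalization lost the calls of ttr-23 (0.27), ttr-29 (0.44) and ttr-47 (-0.15) on V. On IV it lost those of ttr-20 (0.22) and ttr-39 (0.17), and it turned ttr-16, the lower member there, to 0.64. With library totals ttr-47 turned to 0.27 and ttr-16 to 0.38. Both members on II, ttr-18 and ttr-41, were lower, where 38% of all genes were lower.

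Many ttr genes lie beside one another. With a distance of at most 5000 bp, 29 annotated members form 12 groups that hold 25 of the listed ones, and no other protein-coding gene lies between neighbours in them. Of 11 neighbouring pairs with both genes listed, 8 had the same outcome: 4 pairs were both higher, 2 both lower and 2 both did not pass. The difference in log2 fold change within a pair had a median of 0.364. Neither value was set beside that of pairs lying apart, and ttr-2 and ttr-25 each stand in more than 1 pair. Since 59.2% of all ttr genes were higher, some agreement arises without regard to position, and an effect of position was not tested. Of the pairs with both genes listed, the closest on 1 strand, ttr-40 and ttr-49, is 33 bp apart and was lower for both genes. ttr-36 and ttr-35 on X, 89 bp apart on the plus strand, were lower by nearly the same amount (-1.95 and -1.83). On chromosome III, ttr-2 and ttr-1 are 72 bp apart on the plus strand and were both higher (1.75 and 1.44), with ttr-3 on the minus strand beside them (4.08). The pair ttr-16 and ttr-17, 1881 bp apart on the same strand of IV, went opposite ways (-0.22 and 1.10), where ttr-17 measured 35.3 to 54 CPM in pals-17(*) and 17.1 to 26.3 CPM in wild-type. ttr-51 and ttr-45, also on IV, and ttr-25 and ttr-26, on V, had one higher member and one that did not pass.

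**Figure D4:**
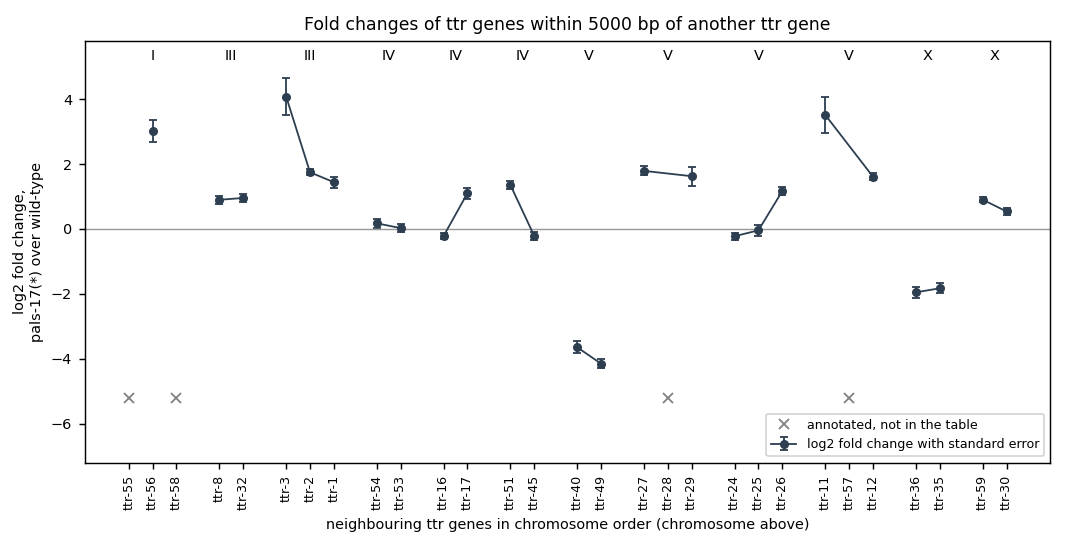
Log2 fold change, pals-17(*) over wild-type, with its standard error for ttr genes within 5000 bp of another, in chromosome order. Lines join the listed genes of a group, and crosses mark annotated genes that are not in the table. Most joined genes lie on the same side of 0. On opposite sides are ttr-16 and ttr-17, ttr-51 and ttr-45, and ttr-25 and ttr-26, where ttr-45 and ttr-25 did not pass.

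A total of 14 members share exonic bases with another annotated gene, 13 of them with a gene in the table, and most of these lie on the opposite strand. The library kit keeps strand, but whether the counting used it is not given in the sources used here, so reads in those stretches cannot be assigned with certainty. The shared stretches ran from 12 bases (ttr-43) to 209 bases (ttr-16), while the exons of a member total 460 to 1415 bases.

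The wild-type libraries varied more than the pals-17(*) libraries for these genes. The median SD of a ttr gene was 0.139 on the log2 scale in pals-17(*) and 0.210 in wild-type (0.145 and 0.167 over all genes), and the wild-type SD was the larger for 40 of 49 members (81.6%, against 58.1% of all genes). Wild-type replicate 4 was the highest wild-type library for 30 members (61.2%, against 28.7% of all genes), and it lay above the mean of the other wild-type libraries for 43 (all genes 49.4%), by a median of 0.30 on the log2 scale (all genes -0.0048). Replicate 2 was the lowest wild-type library for 30 members (61.2%, against 32.3% of all genes). In wild-type replicates 1 to 4, the oocyte list summed to 169.6, 92.8, 102.5 and 35.1 CPM and the sperm list to 39.4, 27.1, 32.2 and 12.3 CPM, so replicate 4 was lowest in both, and the part of this in the ttr levels was not tested. Without wild-type replicate 4, 29 ttr genes were higher and 13 lower, and the median log2 fold change was 0.98.

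**Figure D5:**
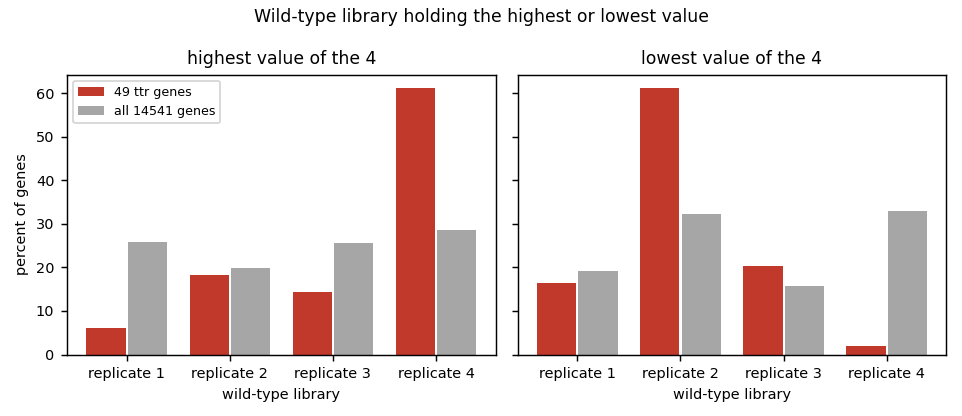
Percent of the 49 ttr genes and of all genes whose highest (left) or lowest (right) wild-type value was in each of the 4 wild-type libraries. Replicate 4 holds the highest value of 61.2% of the ttr genes and replicate 2 the lowest value of 61.2%, against 28.7% and 32.3% of all genes.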

How the data were processed

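RNA from whole animals was made into TruSeq Stranded mRNA libraries. Reads were aligned with Rsubread to the WS235 genome, counted with featureCounts and passed through limma-voom by the authors, who left out genes under 1 CPM. The deposited log2 values proved to be log2 of CPM with 0.5 reads added to each count: 100% of them gave whole reads within 0.01. The scaling method and the strand setting of the counting are not given in the sources used here. An entry without a gene name (0.00417% of reads) was left out. Fold changes were fitted on the deposited log2 values of all named genes (pals-17(*) over wild-type; limma 3.58.1, R 4.3.3) with an intensity trend, no block and Benjamini-Hochberg adjustment, and the fit was tested on simulated data. The test was 2-sided, with 4 libraries against 4.

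The ttr genes, the other lists and the tests were chosen with earlier results of these data known. Genes were named in the text by rule: the 6 largest and the 6 smallest log2 fold changes among ttr genes with an adjusted p under 0.05 and a mean log2 value above 1, the 5 highest mean levels, the members with a known role, those that did not pass, the largest SD in each strain, neighbours, and the 2 highest mean levels of each other list (given for corpse clearance). Other genes named were chosen after their values were seen. Positions and exon lengths come from Ensembl release 115, matched by gene identifier. Alternatives were other priors, voom weights, a replicate block, an offset of 0.1 or 1 CPM in the log, minimum levels, other scalings and thresholds, and leaving out each library.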

Additional observations from a re-analysis of the deposited data

Results flagged for a closer look

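In each strain, the highest and the lowest library of every ttr gene were compared with the others (Dixon's test at its 95% critical value). The ratio was the gap over the whole range, taken on the log2 values, which hold the 0.5 reads added to each count. Of 98 groups, 4 passed, and chance alone marks about 1 in 20. ttr-47 measured 46.8 CPM in pals-17(*) replicate 1 and 53.2 CPM in each of the other pals-17(*) libraries (ratio 0.99). ttr-11 had 0 reads in wild-type replicate 1 and 2 or 3 reads in the other wild-type libraries (0.93), which is within counting error. ttr-9 measured 0.470 CPM in wild-type replicate 2 and 1.10 to 1.23 CPM in the others (0.884). ttr-24 measured 84.7 CPM in wild-type replicate 4 and 62.2 to 65.1 CPM in the others (0.852).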

How the results depend on the processing

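Voom weights, robust empirical Bayes, 0.1 CPM added before the log and a filter of 1 CPM in at least 4 libraries changed no direction and no call at an adjusted p under 0.05 among the 49 ttr genes, but with 0.1 CPM added ttr-9 (1.99) no longer passed the fold threshold, leaving 8 upregulated. With libraries scaled to their totals, 17 ttr genes were upregulated (34.7%, against 25.1% of all genes), their median log2 fold change was 1.51 (all genes 0.60), 3390 genes were lower and 536 downregulated in all, 1 corpse clearance gene was lower, and 6 members turned positive: ttr-47 (0.27), ttr-43 (0.28), ttr-24 (0.37), ttr-16 (0.38), ttr-45 (0.38) and ttr-25 (0.55). Median centring gave medians of 0.63 for the ttr genes and -0.27 for all genes, 5 corpse clearance genes higher, and negative values for ttr-6 (-0.0038), ttr-54 (-0.10) and ttr-53 (-0.25). Quantile normalization gave a ttr median of 0.31, 8 ttr genes upregulated (16.3%) and 1922 genes in all (13.2%), 2 corpse clearance genes lower, 8 ttr genes no longer past the threshold, and turned ttr-54 (-0.59), ttr-53 (-0.022) and ttr-16 (0.64). These scalings change the common reference by construction.

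Adding 1 CPM left 5 ttr genes upregulated (1821 genes in all). Above a mean log2 value of 2, 34 ttr genes remained in the test, 16 higher and 2 upregulated, with a median of 0.10, beside 3767 higher and 1258 upregulated of 10575 genes with a median of -0.19. Among the 31 members with a median of 50 reads or more in each strain, a restriction chosen after seeing the data, 15 were higher, 2 upregulated and 3 downregulated (median 0.17). The same counts over all genes were not made for this restriction, so these lack a background. With a threshold of 1 on the log2 scale there were 23 ttr genes up and 10 down (2910 of all genes down). Without the intensity trend ttr-16 lost its call (adjusted p = 0.0770, limma), leaving 13 ttr genes lower. At an adjusted p under 0.01, ttr-47, ttr-6 and ttr-16 lost theirs. In each of these settings 2 corpse clearance genes were lower.

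With each library left out in turn, 28 to 29 ttr genes were higher, 13 to 15 lower, 8 to 9 upregulated and 6 to 8 downregulated, the median was 0.906 to 0.983, and 2 to 5 corpse clearance genes were lower. ttr-25 ranged over -0.14 to 0.11 and ttr-53 over -0.046 to 0.092. ttr-6 lost its call without any of 5 libraries, and ttr-43 passed without wild-type replicate 2 (-0.46, adjusted p = 0.0413, limma). Replicate numbers gave little sign of a pairing. For this, the mean of its strain was taken from each log2 value, and the remainders were correlated over all genes. Between same-numbered libraries they correlated at -0.0167 to 0.0731, and for 2 of 8 libraries the best match was their own number. With a replicate block, 29 ttr genes were higher and 15 lower, ttr-24 passing (-0.22, adjusted p = 0.0383), with no other ttr call changed. The cause of these changes was not tested. Depth limits the members with few wild-type reads, where 1 read moves the fold change.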
